A study of Mus musculus with 18 samples.

Results

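The genes described here are 8 transcription factor genes tied to the output of the circadian clock: Dbp, Tef, Hlf, Nfil3, Nr1d1, Nr1d2, Bhlhe40 and Bhlhe41. They were taken by symbol from the table of 12558 genes measured in mouse skeletal muscle, and all 8 had a row. The study sequenced RNA of skeletal muscle in 18 libraries, 3 for each of 6 groups, after 10 weeks on the diets. In 4 groups the mice were wild type. Their group labels are WT-NC (normal chow), WT-NC-AQ (normal chow with the drug AQ), WT-HFD (high-fat diet, HFD) and WT-HFD-AQ (HFD with AQ). AQ was given in the drinking water, and the labels do not spell out its name. The other two groups were HFD-Nurr1-mTg, mice with a Nurr1 transgene on HFD, and HFD-WT, wild-type mice that served as the transgenic control, also on HFD. Below, these are called the chow, chow with AQ, HFD, HFD with AQ, transgenic and transgenic control groups. The sources used here do not give the promoter that drives the transgene, the age and sex of the mice, the muscle sampled or the clock time of collection. The labels number the libraries as biological replicates without naming animals, so p-values measure the spread between these libraries.

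The core clock of a cell is a feedback loop. BMAL1 (from Arntl) and CLOCK bind E-boxes and switch on the Per and Cry genes, whose proteins then block them. The same pair drives Nr1d1 and Nr1d2, which encode REV-ERB alpha and REV-ERB beta, nuclear receptors that repress Arntl, Npas2 and Nfil3 through elements that ROR proteins also bind. Dbp, Tef and Hlf encode the PAR bZIP activators, which bind D-boxes, and NFIL3 (E4BP4) is a bZIP repressor of the same sites. Bhlhe40 and Bhlhe41 encode DEC1 and DEC2, basic helix-loop-helix repressors that compete for E-boxes. In muscle, as in other tissues, transcripts of these genes rise and fall over the day, so their level depends on when tissue was taken.

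Promoter stretches around clock motifs are shown first, because they mark where letters that members of the loop bind lie just before a gene's start. The cAMP response element, searched with them, is not among the sites named for the loop above. RefSeq promoters (GRCm38.p6) were found for 7 of the 8 genes, all but Bhlhe40, in 8 windows with 2 for Tef. The 250 bases before each start were searched on both strands for the E-box CACGTG, the E-prime box CACGTT, the D-boxes TTATGTAA and TTACGTAA, the REV-ERB and ROR element TAGGTCA or TGGGTCA, and the cAMP response element (CRE) TGACGTCA. Each stretch below is 30 bases of the gene's own strand, 5′ to 3′, with the motif in capitals.
Tef, first window, E-box, chr15:81802534-81802563, plus strand: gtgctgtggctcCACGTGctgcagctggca
Tef, second window, E-box, chr15:81811264-81811293, plus strand: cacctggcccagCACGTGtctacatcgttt
Bhlhe41, E-box, chr6:145865556-145865585, minus strand: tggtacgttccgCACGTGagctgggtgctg
Nr1d1, E-prime box on the opposite strand, chr11:98775388-98775417, minus strand: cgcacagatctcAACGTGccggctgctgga
Nfil3, REV-ERB and ROR element on the opposite strand, chr13:52981040-52981069, minus strand: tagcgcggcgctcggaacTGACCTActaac
Hlf, CRE, chr11:90390918-90390947, minus strand: atcggcgcgcggtgcgggcccTGACGTCAc
The motifs started at position -127 and -138 relative to the RefSeq start in the 2 Tef windows, -153 in Bhlhe41, -28 in Nr1d1, -12 in Nfil3 and -9 in Hlf. In the GENCODE M21 annotation the Hlf and Nr1d1 stretches lay upstream of the gene, the second Tef stretch lay in an intron, and the remaining 3 overlapped an exon of a transcript. No other motif of the set was found in these windows, none overlapped another, and the windows of Dbp and Nr1d2 held none of the 5. Among all 32851 RefSeq promoter windows, 6.02% held the E-box in the same 250 bases, 3.85% the E-prime box, 0.931% a D-box, 5.38% the REV-ERB and ROR element and 1.55% the CRE. These matches describe the letters in the windows and are not measured binding sites. Sequence beyond the windows was not searched, so a gene without a match here may carry the motifs elsewhere.

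Values are the authors' CPM, a depth-scaled read count on their own scale, and every one was a whole number of recovered reads. The 18 libraries held 10404895 to 16082994 recovered reads, and 3 reads lay at 0.191 to 0.277 CPM, so each of the 8 genes was far above the limit of detection. The fewest reads of any member in a library were 153 (Nfil3). All 10 defining markers of muscle fibres were above 0 in every library. Nr4a2, the gene of NURR1, lay at 18.8, 30.1 and 19.8 CPM in the transgenic libraries and at most 4.79 CPM in any other. Chow replicate 1 stood apart for these genes: of the 18 libraries it was the lowest for Dbp, Hlf, Bhlhe40 and Bhlhe41. Chow replicate 3 was the highest of the 18 for Dbp, Tef and Hlf. Each comparison was also made with each of its libraries left out in turn, these among them. In bulk tissue, fewer cells of a type and less RNA per cell cannot be told apart.

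Per kilobase of exon sequence, which allows levels of different genes to be compared, Nr1d1 was the most abundant of the 8 at a mean of 77.3 CPM per kb over the 18 libraries. Tef followed at 52.1, Dbp at 38.6, Bhlhe40 at 37.3 and Nr1d2 at 28.4 CPM per kb. Bhlhe41 (13.6), Nfil3 (12.1) and Hlf (4.64) were the least abundant. The order differed between groups: Nr1d1 ran from 30.2 CPM per kb with AQ on HFD to 112 CPM per kb in the transgenic controls. With AQ on HFD it lay below Tef (63), Dbp (46.5) and Nr1d2 (33.5 CPM per kb), and on HFD it lay at 50.8 against 58.7 CPM per kb for Tef. Hlf, which shares its family and binding site with Tef, was the lowest member in each of the 6 groups. The genes lie on 6 chromosomes of GRCm38: Nr1d1 on chromosome 11 from 98767932 to 98775333, Hlf on the same chromosome from 90336536 to 90390895, Tef on chromosome 15 from 81802421 to 81826863, Dbp on chromosome 7 from 45705088 to 45710203, Nr1d2 on chromosome 14 from 18204054 to 18239127, Nfil3 on chromosome 13 from 52967209 to 52981073, and Bhlhe40 and Bhlhe41 on chromosome 6 from 108660629 to 108666925 and from 145858243 to 145865558.

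**Figure D1:**
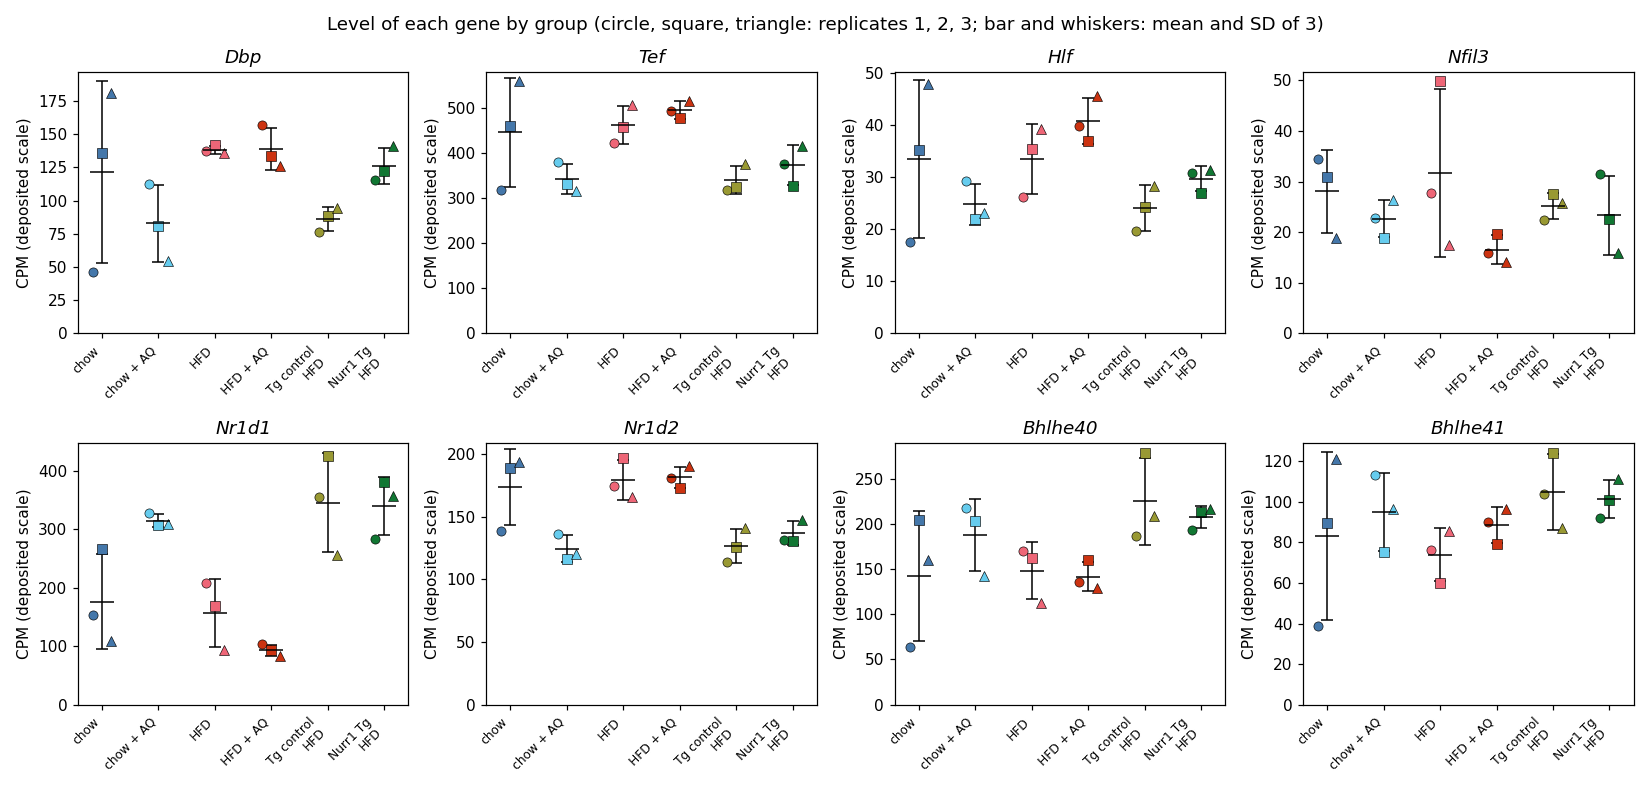
Level of each of the 8 genes in the 6 groups, in CPM on the deposited scale, from 0. Circles, squares and triangles are replicates 1, 2 and 3, and the bar with whiskers is the mean and SD of 3 libraries. Nr1d1 is high in the 3 groups where Nr1d2 is low.

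Among the PAR bZIP activators, Dbp was measured at 46.5, 136 and 181 CPM in the 3 chow libraries and at 113, 81.2 and 54.3 CPM with AQ on chow. On HFD it lay at 137, 142 and 136 CPM, and with AQ on HFD at 157, 134 and 126 CPM. The transgenic controls had 76.3, 88.3 and 94.1 CPM and the transgenic libraries 115, 122 and 141 CPM. The 3 HFD libraries were nearly equal, while the 3 chow libraries held both the lowest and the highest Dbp value of the study. In the order of group means (HFD with AQ 139, HFD 138, transgenic 126, chow 121, transgenic control 86.2, chow with AQ 82.8 CPM) every pair of neighbours overlapped.

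Tef had a smaller range between libraries. It was measured at 318, 460.2 and 559.5 CPM on chow, at 379, 332 and 316 CPM on chow with AQ and at 423, 457 and 506 CPM on HFD. With AQ on HFD it lay at 492, 477 and 516 CPM, in the transgenic controls at 318, 325 and 376 CPM and in transgenic muscle at 377, 327 and 416 CPM. The group means ran from 495 ± 19.8 CPM (SD, n = 3) with AQ on HFD to 342.6 ± 32.8 CPM with AQ on chow and 339.7 ± 31.3 CPM in the transgenic controls, and neighbours in the order overlapped.

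Hlf was measured at 17.6, 35.1 and 47.7 CPM on chow, 29.2, 21.9 and 23.1 CPM on chow with AQ and 26.1, 35.4 and 39.1 CPM on HFD. It lay at 39.8, 36.8 and 45.5 CPM with AQ on HFD, 19.6, 24.2 and 28.2 CPM in the transgenic controls and 30.7, 26.9 and 31.3 CPM in transgenic muscle. As for Tef, HFD with AQ was the highest group (40.7 ± 4.4 CPM) and the transgenic control group the lowest (24.0 ± 4.33 CPM), with overlap between neighbours.

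Nfil3, the repressor of D-box genes, was measured at 34.4, 31.0 and 18.8 CPM on chow, at 22.8, 18.9 and 26.3 CPM on chow with AQ and at 27.7, 49.9 and 17.4 CPM on HFD. With AQ on HFD it lay at 15.9, 19.6 and 14.1 CPM, in the transgenic controls at 22.4, 27.5 and 25.8 CPM and in transgenic muscle at 31.5, 22.5 and 15.9 CPM. A single HFD library, replicate 2, was the highest of all 18. HFD with AQ had the lowest mean for Nfil3 (16.6 ± 2.79 CPM) and the highest for Dbp, Tef and Hlf, overlapping its neighbour in each order. For Dbp the means with and without AQ on HFD were nearly equal, at 139.1 and 138.4 CPM.

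The REV-ERB genes parted from each other. Nr1d1 was measured at 154, 267 and 109 CPM on chow, at 208, 168 and 92.8 CPM on HFD and at 103, 92.9 and 83.4 CPM with AQ on HFD. It lay at 328, 307 and 310.0 CPM with AQ on chow, at 355, 426 and 257 CPM in the transgenic controls and at 284, 380.5 and 357 CPM in transgenic muscle. The last 3 groups had means of 315 ± 11.2, 346 ± 84.6 and 340.4 ± 50.2 CPM and overlapped each other. These means stood above that of the chow group (176 ± 81.4 CPM). The chow libraries did not overlap those of chow with AQ. The lowest transgenic control library (257 CPM) lay below the highest chow library (267 CPM). The HFD with AQ group was lowest at 93.1 ± 9.77 CPM.

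Nr1d2 was measured at 139, 189 and 193 CPM on chow, at 174, 197 and 166 CPM on HFD and at 181, 173 and 190.1 CPM with AQ on HFD. It lay at 136, 116 and 120.1 CPM with AQ on chow, at 114, 126 and 141 CPM in the transgenic controls and at 131, 131 and 148 CPM in transgenic muscle. The groups with the 3 highest means of Nr1d1 thus had the 3 lowest means of Nr1d2, although neighbours in the order of Nr1d2 overlapped. The range was narrow: the highest library had 1.73 times the level of the lowest, against 5.1 times for Nr1d1.

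Of the DEC genes, Bhlhe40 was measured at 63.3, 204 and 160.0 CPM on chow, 218, 204 and 143 CPM on chow with AQ and 169.8, 163 and 112 CPM on HFD. It lay at 136, 160.1 and 129.5 CPM with AQ on HFD, 187, 279 and 209 CPM in the transgenic controls and 193, 214 and 216 CPM in transgenic muscle. The order of means followed that of Nr1d1 in its first 3 places (transgenic control 225, transgenic 208, chow with AQ 188 CPM), and all neighbours overlapped.

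Bhlhe41 was measured at 39.0, 89.7 and 121 CPM on chow, 113, 75.2 and 96.3 CPM on chow with AQ and 76.2, 60.2 and 85.8 CPM on HFD. It lay at 90.2, 79.1 and 96.7 CPM with AQ on HFD, 104, 124 and 87.0 CPM in the transgenic controls and 92.3, 101 and 111 CPM in transgenic muscle. Its group means spanned only 74.0 ± 12.9 CPM (HFD) to 104.9 ± 18.6 CPM (transgenic control), which is less than the span of the 3 chow libraries.

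AQ on chow compares mice with and without the drug on normal chow. Nr1d1 averaged 315 CPM with AQ against 176 CPM without, and Nr1d2 124 against 174 CPM. For both genes the 3 libraries with AQ did not overlap the 3 without, as for 19.8% of all genes. The log2 fold change, on the log2(CPM + 1) scale here and throughout, was 0.93 ± 0.28 (SE) for Nr1d1 (limma adjusted p = 0.116) and -0.47 ± 0.11 for Nr1d2 (limma adjusted p = 0.0530). Neither passed the threshold of 0.05, and limma called 0 of the 8 genes. At an unadjusted p under 0.05 there were 3 (Nr1d1, Nr1d2 and Tef), against 1942 of 12524 genes (15.5%) at that level. The background of limma calls was 139 genes, 1.11%. Tef had a log2 fold change of -0.35 ± 0.15 and Dbp of -0.40 ± 0.33.

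The call for Nr1d2 on chow turned on small choices. edgeR on the recovered reads gave -0.48 with an adjusted p of 0.0483 and called 146 genes (1.17%). DESeq2 gave an adjusted p of 0.00789 and called 280 of 11064 genes (2.53%). In each of these tests Nr1d2 was the only member called. Without chow replicate 1, limma called 98 genes (0.782%), among them Nr1d2 (-0.62 ± 0.10, adjusted p = 0.00706), Tef (-0.57 ± 0.12, adjusted p = 0.0314) and Dbp (-0.98 ± 0.20, adjusted p = 0.0333), all lower with AQ. Without chow replicate 2, limma called 34 genes (0.271%), and Nr1d1 was the only member among them (1.28 ± 0.26, adjusted p = 0.0465). In these fits the chow group rests on 2 libraries. Without chow replicate 3, no member was called. With each library left out in turn, the log2 fold change ran from -0.978 to -0.007 for Dbp and from -0.569 to -0.164 for Tef. It ran from -0.622 to -0.383 for Nr1d2 and from 0.635 to 1.277 for Nr1d1.

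Around the members, the loop genes Arntl, Npas2 and Per2 passed with AQ on chow. Arntl rose (1.24 ± 0.28, limma adjusted p = 0.0422), and so did Npas2, a partner of BMAL1 related to CLOCK (1.39 ± 0.26, limma adjusted p = 0.0216). These were 2 of the 5 measured core activators, and none fell. Npas2 was measured at low levels, with means of 3.80 CPM with AQ and 0.925 CPM without. edgeR called Npas2 and not Arntl, and DESeq2 called Arntl and gave no adjusted p for Npas2. Per2 fell (-1.30 ± 0.30, limma adjusted p = 0.0440), the only one of 6 core repressors to pass. Of 15 clock-controlled output genes, Myod1, a myogenic factor, rose (1.02) and Pdxk, pyridoxal kinase and a PAR bZIP target, fell (-0.47). limma and edgeR called 0 of 8 measured clock regulators, 18 immediate early genes and 10 glucocorticoid-responsive genes, of which 2, 3 and 3 were at an unadjusted p under 0.05, and DESeq2 called 1 of the last list. All 10 glucocorticoid-responsive genes had log2 fold changes below 0 with AQ, also under both other scalings, with a median of -0.38. In the same comparison the summed level of 7 leukocyte markers (of 10 listed) lay at 120 to 178 CPM with AQ and 93.5 to 99.7 CPM without, and of 8 endothelial markers at 443 to 528 against 339 to 441 CPM. None of the measured markers was at 0, and their part in these values was not tested.

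On HFD, AQ went with low Nfil3 and low Nr1d1, but no member passed. Nfil3 averaged 16.6 ± 2.79 CPM with AQ against 31.7 ± 16.6 CPM without (log2 fold change -0.78 ± 0.29, limma adjusted p = 0.293). Nr1d1 averaged 93.1 against 156 CPM (-0.67 ± 0.28, limma adjusted p = 0.348). These 2 were the members at an unadjusted p under 0.05, where 1474 of 12524 genes (11.8%) lay. The groups overlapped for each of the 8 genes, while 16.3% of all genes did not overlap. limma, edgeR and DESeq2 each called 0 members. The background of limma calls was 6 genes, 0.0479%. Without HFD replicate 3, which was low for Nfil3 and Nr1d1, limma called 224 genes (1.79%) and Nfil3 passed (-1.13 ± 0.28, adjusted p = 0.0451). Without HFD replicate 2, the highest library for Nfil3, no member was called. With each library left out in turn, the log2 fold change ran from -1.133 to -0.401 for Nfil3 and from -1.005 to -0.427 for Nr1d1. The remaining members had log2 fold changes between -0.05 (Bhlhe40) and 0.29 (Hlf).

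Other lists moved beside the members with AQ on HFD. All 18 immediate early genes had log2 fold changes below 0 (median -0.45), and 17 of 18 when libraries were rescaled to the same sum. Their summed level lay at 315 to 376 CPM with AQ and 358 to 955 CPM without, overlapping. All 10 glucocorticoid-responsive genes lay below 0 as well (median -0.47), also under both other scalings. limma and edgeR called 0 genes of either list and DESeq2 2 of each, with 5 and 4 at an unadjusted p under 0.05. The 8 measured adipocyte markers summed to 254 to 334 CPM with AQ against 356 to 415 CPM without, and the 7 leukocyte markers to 95.3 to 102 against 108 to 136 CPM, neither overlapping. The 8 fibroblast and matrix markers summed to 1402 to 1900 against 1757 to 3354 CPM, overlapping, with 7 of 8 below 0 and a median log2 fold change of -0.81. The 8 endothelial markers summed higher, to 468 to 499 CPM with AQ against 428 to 449 CPM without, with 6 of 8 above 0. Of these, Erg passed (0.56 ± 0.09, limma adjusted p = 0.0267). No measured marker of these marker lists was at 0, and their part in the values of Nfil3 and Nr1d1 was not tested.

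Whether AQ acted differently on the 2 diets was tested as an interaction. For Nr1d1, the change with AQ was 0.93 on chow and -0.67 on HFD, a difference of -1.60 ± 0.39 (limma adjusted p = 0.0671), which missed the threshold. The same difference was 0.49 ± 0.16 for Nr1d2 (limma adjusted p = 0.170) and 0.45 ± 0.21 for Tef (limma adjusted p = 0.343). limma called 0 of the 8 genes, against a background of 89 of 12524, 0.711%. At an unadjusted p under 0.05 there were 3 members, and 1770 genes in all (14.1%). edgeR called 0 members and DESeq2 called 1, Nr1d1 (-1.58, adjusted p = 0.0329), among 229 of 12035 genes (1.9%). Nr1d1 also passed in limma without chow replicate 2 (-1.95, adjusted p = 0.0332), where 76 genes were called (0.607%), and without HFD replicate 3 (-1.94, adjusted p = 0.0269), where 103 were called (0.822%). Without chow replicate 1 it was Nr1d2 that passed (0.64 ± 0.13, adjusted p = 0.0346), among 100 genes (0.798%). Of the lists around the members, Npas2 was the only core clock gene that limma called (-1.93 ± 0.37, adjusted p = 0.0287). With AQ on HFD, Npas2 averaged 0.167 CPM, near the limit of detection, as 3 reads lay at 0.191 to 0.277 CPM.

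Between HFD and chow without AQ, none of these genes passed the threshold. Nr1d1 averaged 156 CPM on HFD and 176 CPM on chow (log2 fold change -0.15 ± 0.28, limma adjusted p = 0.897), and Nr1d2 179 and 174 CPM (0.06 ± 0.11, limma adjusted p = 0.912). The largest difference was that of Dbp, 138 against 121 CPM (0.40 ± 0.33, limma adjusted p = 0.716). limma, edgeR and DESeq2 called 0 members, against a background of 6 of 12524 genes called by limma, 0.0479%. At an unadjusted p under 0.05 there were 0 members and 1193 genes in all (9.53%). No member's groups failed to overlap, while 12.4% of all genes did. The SE of 0.33 for Dbp came with a chow SD of 1.02 on the log2 scale. Without chow replicate 1 the sign turned for 5 of the 8 genes (Dbp, Tef, Hlf, Nr1d2 and Bhlhe40), and Dbp then lay at -0.18. Of the loop genes, Arntl had -0.70 ± 0.28 (limma adjusted p = 0.444) and Per2 0.52 ± 0.30 (limma adjusted p = 0.596). limma, edgeR and DESeq2 called 0 of the 5 core activators, 6 core repressors, 8 regulators and 15 outputs, with 1, 0, 1 and 6 at an unadjusted p under 0.05.

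**Figure D2:**
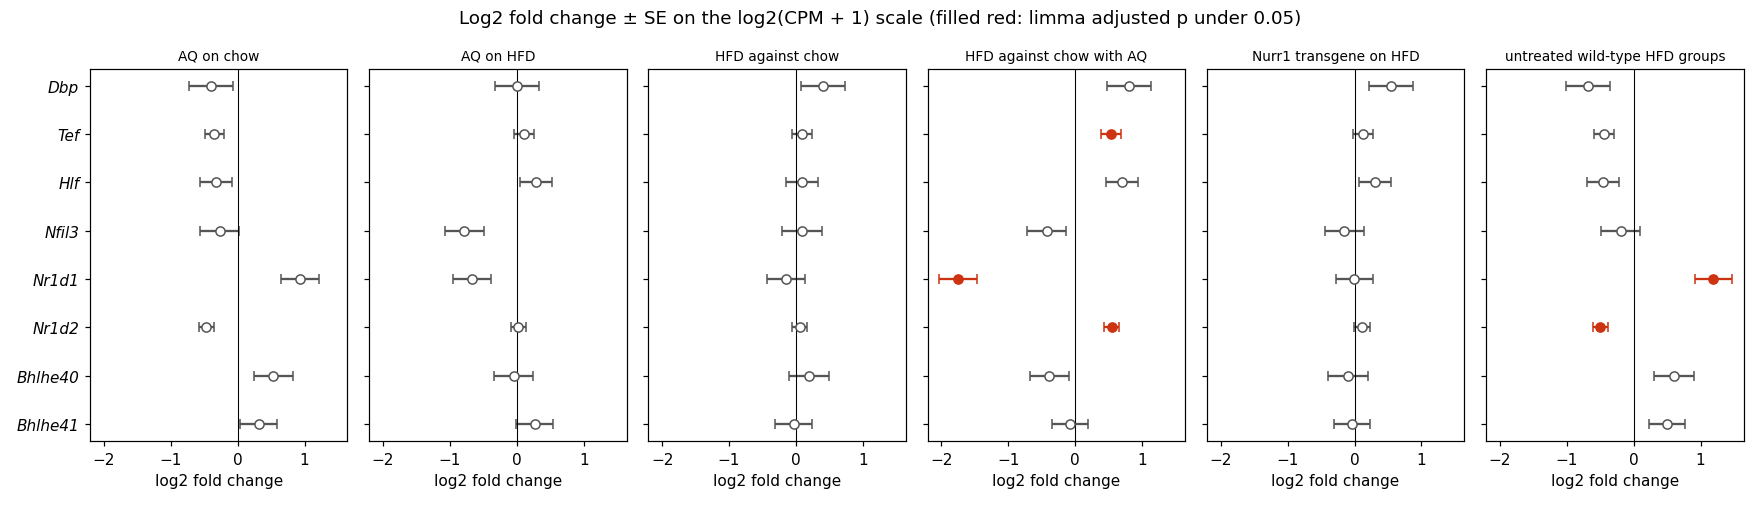
Log2 fold change ± SE of the 8 genes in the 6 pairwise comparisons, on the log2(CPM + 1) scale. Filled red points have a limma adjusted p under 0.05. Members pass in 2 panels, HFD against chow with AQ and the comparison of the untreated wild-type HFD groups (transgenic control minus HFD), where Nr1d1 and Nr1d2 lie on opposite sides of 0.

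Among mice given AQ, the diets differed for 3 of the 8 genes. Nr1d1 was lower on HFD, at 103, 92.9 and 83.4 CPM against 328, 307 and 310.0 CPM on chow (log2 fold change -1.75 ± 0.28, limma adjusted p = 0.000983). Nr1d2 was higher on HFD by 0.54 ± 0.11 (limma adjusted p = 0.00580), from 124 to 181 CPM. Tef was also higher, by 0.53 ± 0.15 (limma adjusted p = 0.0281), from 342.6 to 495 CPM. Hlf (0.70 ± 0.24, limma adjusted p = 0.0728) and Dbp (0.80 ± 0.33, limma adjusted p = 0.133) lay in the same direction as Tef without passing. Nfil3 (-0.43), Bhlhe40 (-0.39) and Bhlhe41 (-0.08) had values below 0.

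This comparison had the broadest background, 1324 of 12524 genes called, 10.6%, of which 613 were higher on HFD (4.89%) and 711 lower (5.68%). With each library rescaled to the same sum, the split was 833 higher and 375 lower, and Nr1d1, Nr1d2 and Tef kept their directions and their calls. Libraries did not overlap for Dbp, Tef, Hlf, Nr1d1 and Nr1d2, 5 of the 8 genes (62.5%), against 33.2% of all genes. The median absolute log2 fold change was 0.54 over the 8 genes and 0.15 over all genes tested. Nr1d1 and Nr1d2 passed with each of the 6 libraries left out in turn. Tef lost its call when any of the 3 HFD with AQ libraries, or chow with AQ replicate 2 or 3, was left out, with adjusted p between 0.0569 and 0.116. A fit of only the 2 groups called 5 members, adding Hlf (adjusted p = 0.00253) and Dbp (adjusted p = 0.0208), among 1728 of 12524 genes (13.8%). edgeR called the same 3 members as limma, among 1282 of 12524 genes (10.2%). DESeq2 called 4, adding Hlf (adjusted p = 0.0325), among 1399 of 12521 genes (11.2%). Hlf was also called with libraries rescaled to the same sum (adjusted p = 0.0351).

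Further genes of the loop passed in the same comparison. Of 5 core activators 3 were lower on HFD: Arntl (-2.42 ± 0.28, limma adjusted p = 0.000112), Npas2 (-2.03 ± 0.26, limma adjusted p = 0.000215) and Clock (-0.62 ± 0.13, limma adjusted p = 0.00617). Npas2 averaged 0.167 CPM on HFD, near the limit of detection, and 3.80 CPM on chow. With 1 added to each CPM, its log2 fold change is smaller than the ratio of these means. Of 6 core repressors 2 were higher, Per2 (2.09 ± 0.30, limma adjusted p = 0.000455) and Per3 (1.33 ± 0.28, limma adjusted p = 0.00571). The regulator Nampt, which encodes the rate-limiting enzyme of NAD salvage, was higher by 0.34. Of 15 outputs, 4 were higher: Dgat2, an enzyme of triglyceride synthesis (1.57), the tetraspanin gene Tspan4 (1.01), the cell cycle kinase gene Wee1 (0.73) and Pdxk (0.65). Myod1 was lower (-0.66).

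Other lists differed in the same comparison. Of 18 immediate early genes, Klf4, Klf2, Fosl2 and Jund were lower on HFD with AQ, by log2 fold changes from -1.18 to -0.58, and the summed level lay at 315 to 376 against 405 to 538 CPM. The metallothionein gene Mt2 was the 1 of 10 glucocorticoid-responsive genes that passed (-1.11). The 10 muscle fibre markers summed to 122103 to 130637 CPM on HFD and 145240 to 160769 CPM on chow. Singly, 7 lay below 0 and 3 above, and limma called Des lower (-0.43) and Mb higher (0.85). The 7 measured leukocyte markers lay at 95.3 to 102 against 120 to 178 CPM. The 8 fibroblast markers lay at 1402 to 1900 against 1717 to 2263 CPM, overlapping, with 5 below 0 and 3 above. Of these, limma called Col3a1 (-0.98) and Fbn1 (-1.52) lower and Lum (0.47) higher. The 8 adipocyte markers summed to 254 to 334 against 227 to 283 CPM. Most of them went against this sum, with 6 of 8 below 0 and a median log2 fold change of -0.32. The part of these differences in the members' values was not tested.

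The Nurr1 transgene on HFD did not change any member past the threshold. Nr1d1 averaged 340.4 ± 50.2 CPM with the transgene and 346 ± 84.6 CPM without (log2 fold change -0.003 ± 0.28, limma adjusted p = 1). Dbp averaged 126 ± 13.3 against 86.2 ± 9.09 CPM (0.54 ± 0.33, limma adjusted p = 0.694), and was the 1 member whose libraries did not overlap, as for 14.3% of all genes. Hlf had 0.31 ± 0.24, Tef 0.13 ± 0.15 and Nr1d2 0.11 ± 0.11, all above 0, while Nfil3 had -0.16 ± 0.29, Bhlhe40 -0.10 ± 0.29 and Bhlhe41 -0.04 ± 0.27. limma, edgeR and DESeq2 called 0 members, against a background of 75 of 12524 genes called by limma, 0.599%. At an unadjusted p under 0.05 there were 0 members and 1121 genes in all (8.95%). With a spread taken from these 2 groups alone, which leaves out the wide chow group, Dbp passed (0.54 ± 0.10, adjusted p = 0.0455), among 94 genes (0.751%).

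Arntl, whose promoter REV-ERB proteins bind, lay at 13.9, 12.9 and 13.6 CPM with the transgene and at 27.7, 28.8 and 24.1 CPM without (-0.94 ± 0.28, limma adjusted p = 0.179). These groups did not overlap, though Nr1d1 did. limma, edgeR and DESeq2 called 0 of 5 core activators, 6 repressors, 8 regulators and 15 outputs, with 2, 0, 1 and 1 at an unadjusted p under 0.05. Per1 had -0.70 ± 0.34 and Per2 0.54 ± 0.30. All 18 immediate early genes had log2 fold changes below 0, also under both other scalings, with Klf2 the 1 that passed in limma (-1.19 ± 0.26, adjusted p = 0.0453) while edgeR called 0 and DESeq2 2. The same held for the signs of all 10 glucocorticoid-responsive genes, of which limma and edgeR called 0 and DESeq2 2, with 2 at an unadjusted p under 0.05. The summed levels were 300 to 350 against 417 to 582 CPM for the first list and 565 to 662 against 584 to 1169 CPM for the second.

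The 2 groups of untreated wild-type mice on HFD, the HFD group and the transgenic control group, carry the same diet label and were compared as a check on levels between the 2 sets of mice. They differed for Nr1d1 and Nr1d2. Nr1d1 was measured at 355, 426 and 257 CPM in the transgenic controls and 208, 168 and 92.8 CPM in the HFD group (log2 fold change 1.19 ± 0.28, limma adjusted p = 0.0233). Nr1d2 was at 114, 126 and 141 against 174, 197 and 166 CPM (-0.50 ± 0.11, limma adjusted p = 0.0197). Tef (-0.44 ± 0.15, limma adjusted p = 0.0985), Dbp (-0.68 ± 0.33), Hlf (-0.46 ± 0.24), Bhlhe40 (0.60 ± 0.29) and Bhlhe41 (0.50 ± 0.27) did not pass. The libraries did not overlap for 6 of the 8 genes (75%), the exceptions being Hlf and Nfil3, against 23% of all genes.

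The background was 559 of 12524 genes, 4.46%, with 348 higher in the transgenic controls (2.78%) and 211 lower (1.68%). Rescaled to the same sum, the split was 178 higher and 218 lower, with the calls for Nr1d1 and Nr1d2 kept and Tef added. Both calls were lost without HFD replicate 2, without transgenic control replicate 1 or without transgenic control replicate 2, and Nr1d1 also without HFD replicate 3, with adjusted p from 0.0584 to 0.112. In a fit of the 2 groups alone, Nr1d1 (adjusted p = 0.0925) and Nr1d2 (adjusted p = 0.0653) missed the threshold and Dbp passed (adjusted p = 0.0232), among 96 of 12524 genes (0.767%). Around them, Arntl was higher in the transgenic controls (1.40 ± 0.28, limma adjusted p = 0.00901), and Per2 (-1.62 ± 0.30, limma adjusted p = 0.00558) and Nampt (-0.55) were lower. So were 3 of 15 outputs, Ucp3, a mitochondrial carrier of muscle (-1.25), Tspan4 (-0.68) and Pdxk (-0.51). Muscle fibre markers summed to 137385 to 172548 against 132254 to 150761 CPM and leukocyte markers to 106 to 176 against 108 to 136 CPM, both overlapping. The mouse line, the day of sampling and the clock time cannot be told apart in this comparison. As no clock time is given for any group, it cannot be told apart from drug, diet or transgene in the other comparisons either.

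Because the transgenic controls serve in both of the last comparisons, and the 4 remaining wild-type groups each serve in several of the others, values from comparisons that share a group are not independent of each other. Side by side, Nr1d1 had log2 fold changes of 0.93 (AQ on chow), -1.75 (HFD against chow with AQ), 1.19 (transgenic control against HFD) and -0.003 (transgene), and Nr1d2 of -0.47, 0.54, -0.50 and 0.11.

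**Figure D3:**
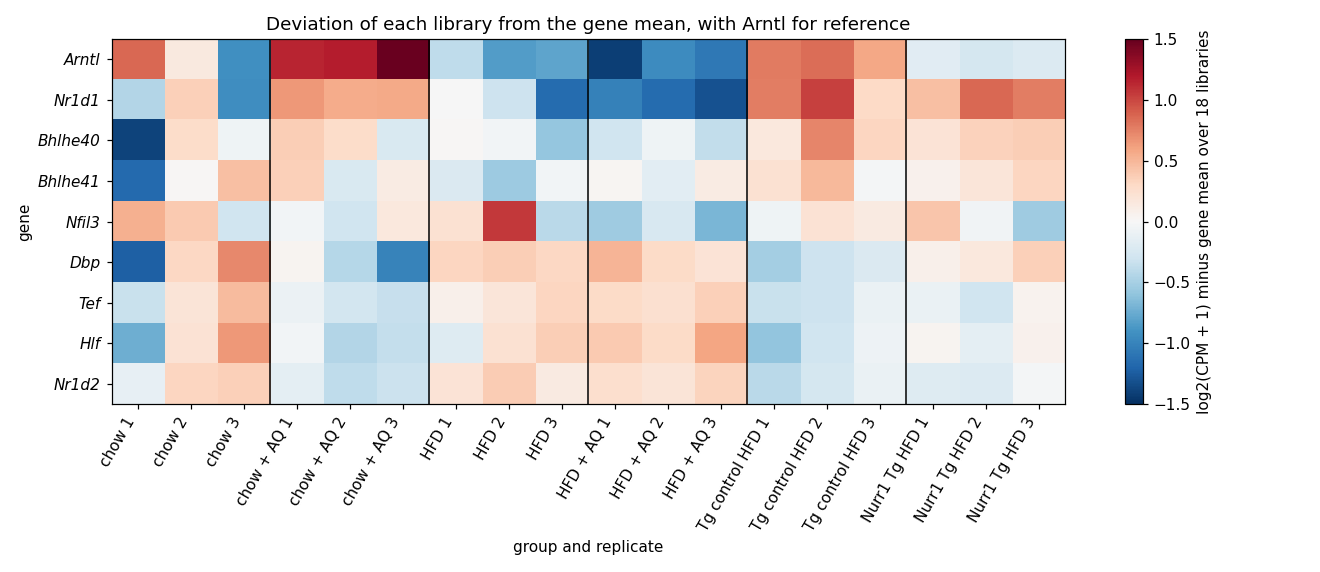
Each library's log2(CPM + 1) minus the gene's mean over 18 libraries, for the 8 genes and Arntl, with groups divided by vertical lines. Red is above and blue below the gene mean. Chow with AQ and transgenic control libraries are high for Arntl and Nr1d1 and low for Tef, Hlf and Nr1d2, HFD with AQ libraries show the reverse, and chow replicates 1 and 3 differ from each other in most rows.

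Arntl gives a reference for these patterns. It lay at 29.3, 17.5 and 7.83 CPM on chow, 36.1, 36.9 and 45.8 CPM on chow with AQ, 11.8, 8.38 and 8.69 CPM on HFD and 5.29, 7.70 and 6.93 CPM with AQ on HFD. Within the chow group, replicate 1 had the highest Arntl and the lowest Dbp (46.5 CPM), Tef (318 CPM) and Hlf (17.6 CPM), and replicate 3 had the lowest Arntl and the highest Dbp (181 CPM), Tef (559.5 CPM) and Hlf (47.7 CPM). The 3 chow libraries were thus ordered oppositely for Arntl and for the PAR bZIP genes.

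The spread between libraries of a group was wide for 6 of the 8 genes. The SD of log2(CPM + 1), pooled over the 6 groups, was 0.48 for Dbp, larger than in 99.1% of the genes tested. It was 0.43 for Bhlhe40 (98.5%), 0.43 for Nfil3 (98.5%), 0.41 for Nr1d1 (98.1%), 0.40 for Bhlhe41 (97.9%) and 0.35 for Hlf (96.6%). Tef (0.21, 74.5%) and Nr1d2 (0.15, 50.7%) were steadier, and they were 2 of the 3 genes called by limma in any comparison. Among genes of similar mean level the percentiles were 97.1 to 99.2 for the first 6, 85.1 for Tef and 74.8 for Nr1d2. The chow group was the widest for each gene except Nfil3, whose HFD group was wider. The SD of Dbp was 1.02 on chow and 0.03 on HFD, and that of Nr1d1 0.65 on chow and 0.05 on chow with AQ. Without chow replicate 1, a setting added after seeing the data, the pooled SD was 0.265 for Dbp (90.4%), 0.257 for Bhlhe40 (89.2%), 0.234 for Bhlhe41 (84.3%) and 0.225 for Hlf (82%), each smaller by more than 1.5 times. Nfil3 (0.428, 98.7%) and Nr1d1 (0.422, 98.6%) stayed wide, while Tef had 0.138 (45.7%) and Nr1d2 0.112 (30%).

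**Figure D4:**
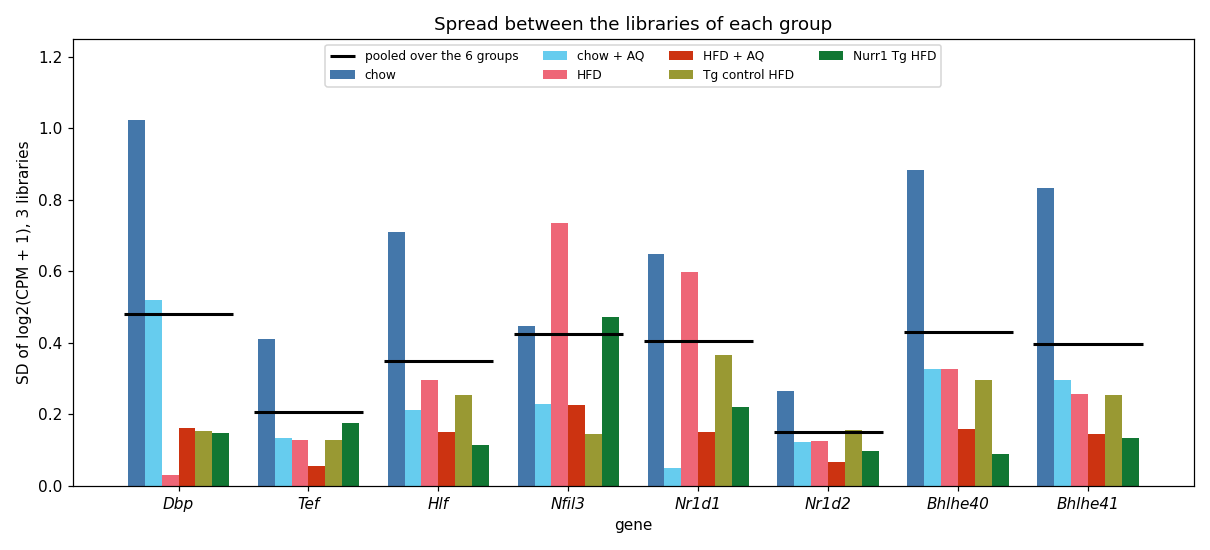
SD of log2(CPM + 1) over the 3 libraries of each group for the 8 genes (bars, from 0), with the SD pooled over the 6 groups as a black line. The chow bar is the tallest for 7 genes, and the HFD bar for Nfil3.

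How the members varied together within groups was tested after subtracting each group's mean, over 18 libraries and 28 pairs. Tef and Hlf followed each other most closely (Pearson r = 0.946, permutation p = 0.00011, adjusted p = 0.0031; Spearman rho = 0.882, permutation p = 0.00016, adjusted p = 0.0045). Without the 2 libraries farthest from the median, chow replicates 1 and 3, r was 0.843 (adjusted p = 0.015). Within the 12 libraries of the diet and AQ groups r was 0.979, and within the 6 of the transgenic and control groups it was 0.788. No other pair passed. Dbp and Tef (r = 0.858), Hlf and Nr1d2 (0.825), Dbp and Nr1d2 (0.799) and Tef and Nr1d2 (0.798) each had an adjusted permutation p of 0.052. Without those 2 libraries they fell to between 0.571 and 0.668 (adjusted p = 0.20). In the 6 transgenic and control libraries, which do not include chow, the 4 pairs had r of 0.685, 0.9, 0.94 and 0.824 in the same order.

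Nr1d1 and Nr1d2 did not vary together within groups (r = 0.059, rho = 0.117, adjusted permutation p = 0.99 for r). Over the uncentred values r was -0.737, which is a description of the group means and carries no test. The DEC pair had r = 0.627 (rho = 0.449, adjusted permutation p = 0.50), and 0.209 without chow replicates 1 and 2. With Arntl, in a family of 8 relations, Hlf (r = -0.837, rho = -0.618), Dbp (r = -0.832, rho = -0.616) and Tef (r = -0.820, rho = -0.626) lay opposite, with an adjusted permutation p of 0.10 for each r. Without chow replicates 1 and 3 the values were -0.464, -0.435 and -0.404. In the 6 transgenic and control libraries they were -0.444, -0.409 and -0.315. The relations with Arntl did not pass.

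**Figure D5:**
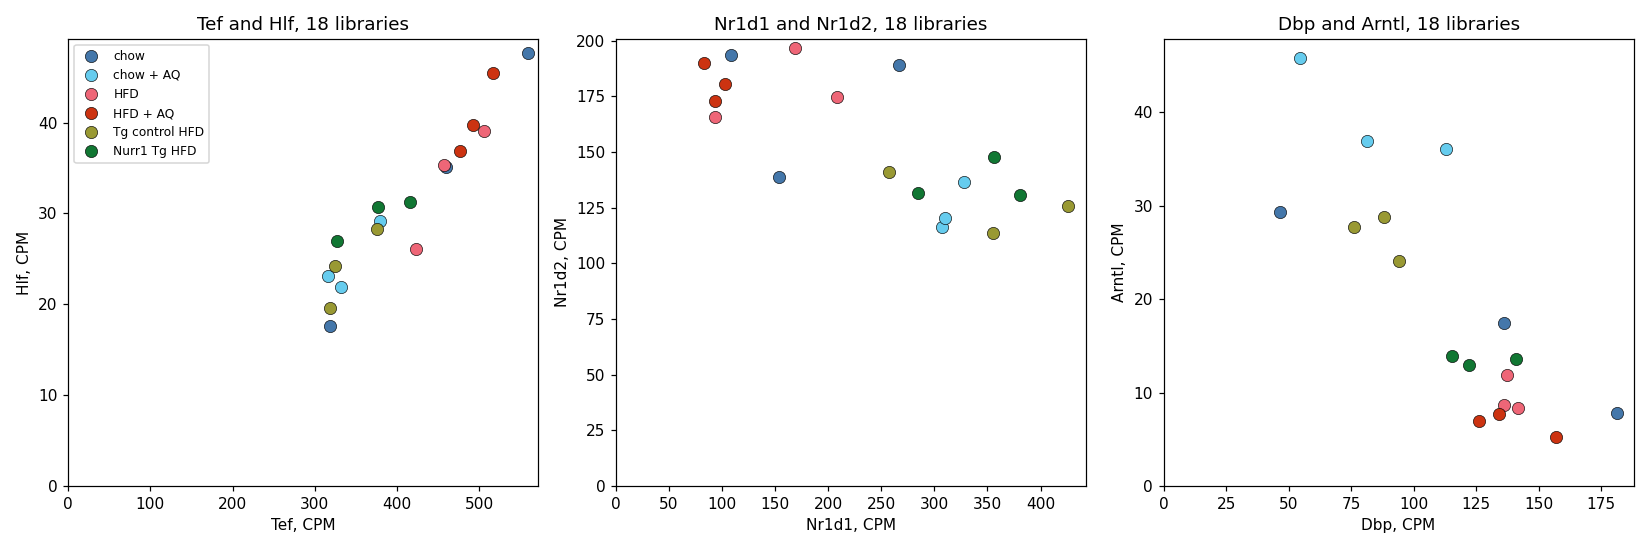
Levels in CPM, from 0, of 3 gene pairs in the 18 libraries, coloured by group. Tef and Hlf rise together, Nr1d1 and Nr1d2 separate the groups in opposite directions (r = 0.059 within groups), and high Dbp goes with low Arntl.

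The genes whose within-group pattern was most like each member were searched among 10714 genes. For Hlf these were Tef (r = 0.946), Per3 (0.932) and Rev1 (0.926), and for Tef they were Hlf, Per3 (0.939) and Mylk4 (0.93). Dbp was nearest to Per2 (0.886), Snhg1 (0.878) and Sharpin (0.871). Clock genes thus appeared beside all 3 PAR bZIP genes. They did not appear beside the others: Nr1d1 was nearest to Msx1 (0.893), Npdc1 (0.841) and Pkn3 (0.834), and Nr1d2 to Cldn12 (0.916), Cpeb3 (0.914) and Mypn (0.888). Nfil3 was nearest to Procr (0.947), Phlda1 (0.899) and Gpr116 (0.872), Bhlhe40 to Dus3l (0.899), Ank3 (0.889) and Rps3 (0.879), and Bhlhe41 to Zfp938 (0.917), Nedd4 (0.911) and Uba2 (0.908). These are the highest of many coefficients over 18 libraries that share depth and group structure, and are given as descriptions.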

How the data were processed

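Per the labels' protocols, RNA was isolated with TRIzol, and sequencing gave single-end reads 50 bases long. TopHat2 2.0.12, edgeR and the builds GRCm38 and mm10 are named in the submitters' processing notes; no source used here gives the counting tool or the use of strand, so reads of antisense neighbours cannot be told apart. The authors deposited a table headed as CPM. Its columns sum to 929993 to 1071538, so the deposited values are a scaled signal, and 100% of them were whole reads times a factor per library (tolerance 1e-06 reads). Tests were made with limma 3.58.1 (R 4.3.3; lmFit, eBayes with a trend, two-sided) on log2(CPM + 1), all 6 groups in 1 fit (12 residual degrees of freedom). A gene needed 1 CPM in 3 libraries to be tested, which kept 12524, with Benjamini-Hochberg adjustment over them and a threshold of 0.05. edgeR 4.0.16 (quasi-likelihood) and DESeq2 1.42.0 on the recovered reads were alternatives. The fit was also run on simulated reads, and the share of changed genes it recovered there is not reported here. Correlations used 100000 permutations within groups (smallest p 1e-05), adjusted over 28 pairs or 8. Gene models came from GENCODE M21 (exon union lengths). Libraries of a group differed by more than sampling noise (lowest chi-square per degree of freedom 4.26). Always named were the 8 genes, every called gene of the fixed lists of clock, output, immediate early and glucocorticoid-responsive genes or, where none was called, at most 2 with the smallest p, and the 3 genes most like each member. Members and lists were chosen with earlier results of these data known. Rorb and Fbxl21 of the clock lists, and a few genes of the adipocyte and leukocyte marker lists, were not analysed here, nor was protein sequence.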

Additional observations from a re-analysis of the deposited data

How the results depend on the processing

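Of 1056 log2 fold changes recomputed under other settings for the 8 genes, 975 kept their direction and side of the threshold, 22 gained and 15 lost a call, and 44 changed sign. For AQ on chow 1 member was called with a filter of 5 CPM, with libraries rescaled to equal sums, with edgeR and with DESeq2. For HFD against chow with AQ, where limma called 3, a fit of only the groups compared called 5, edgeR 3, and DESeq2 and rescaling to equal sums 4 each. For the interaction, DESeq2 called 1. The fit of only the groups compared called 1 for the transgene and 1 for the untreated HFD groups, where removing each library's GC trend, added after seeing the data, also called 1 (Nr1d1). Leaving out a library gave 0 to 3 called members for AQ on chow, 0 to 1 for AQ on HFD, 0 to 1 for the interaction and 0 to 2 for the untreated HFD groups.

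Between groups, the deviations of same-numbered libraries correlated between -0.214 and 0.306. Differently numbered libraries were not compared, so these values cannot decide whether the labels' replicate numbers pair the libraries. With the replicate block limma called 1 member (Nr1d1, adjusted p = 0.032) in the interaction, and Hlf was added in HFD against chow with AQ (adjusted p = 0.0459). The block moved the count of all genes called from 6 to 49 for AQ on HFD, from 6 to 12 for HFD against chow and from 139 to 120 for AQ on chow, and changed the other 4 counts by less than 1.5 times. It changed no other call of a member.

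None of the values that changed sign was called in either setting. Rescaled to equal sums, Bhlhe40 for AQ on HFD lay at 0.015, Bhlhe41 for the interaction at 0.029 and Nr1d1 for the transgene at 0.032. Nr1d1 for the transgene lay at 0.004 with the same upper quartile and 0.006 without the GC trend, Bhlhe41 for the interaction at 0.073 with edgeR and 0.073 with DESeq2, and Hlf for HFD against chow at -0.005 with edgeR. Without the 2 farthest libraries r was -0.240 for Nr1d1 with Nr1d2 and 0.209 for Bhlhe41 with Arntl. Leaving out single libraries, log2 fold changes ran as follows. AQ on chow gave -0.154 to 0.652 for Bhlhe41, and AQ on HFD -0.089 to 0.067 for Dbp, -0.033 to 0.090 for Nr1d2 and -0.233 to 0.062 for Bhlhe40. HFD against chow gave -0.181 to 0.789 for Dbp, -0.139 to 0.267 for Tef, -0.300 to 0.395 for Hlf, -0.294 to 0.438 for Nfil3, -0.447 to 0.196 for Nr1d1, -0.098 to 0.140 for Nr1d2, -0.306 to 0.531 for Bhlhe40 and -0.503 to 0.302 for Bhlhe41. HFD against chow with AQ gave -0.239 to 0.054 and the interaction -0.385 to 0.421 for Bhlhe41. The transgene gave -0.391 to 0.082 for Nfil3, -0.202 to 0.161 for Nr1d1, -0.219 to 0.067 for Bhlhe40 and -0.165 to 0.089 for Bhlhe41. The untreated HFD groups gave -0.546 to 0.186 for Nfil3. The cause of these changes was not tested.

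Counts of all genes called moved by more than 1.5 times. Over the settings other than leaving out a library they ranged from 12 to 280 for AQ on chow (139 in the main test), 1 to 143 for AQ on HFD (6), 2 to 47 for HFD against chow (6), 997 to 1728 for HFD against chow with AQ (1324), 23 to 229 for the interaction (89), 66 to 171 for the transgene (75) and 96 to 756 for the untreated HFD groups (559). Leaving out a library, they ranged from 13 to 113, 0 to 224, 0 to 40, 573 to 1130, 3 to 103, 43 to 72 and 145 to 748 in the same order. The 8 genes had at least 153 reads in each library.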
